A study of Mus musculus with 108 samples.

Results

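The regions described here were 200 bp bins of the mouse autosomes that carried the Polycomb state (state 6) in the livers of young mice on standard diet (SD 3m) and the state without any of the 4 marks (state 8) in 12-month-old livers under both diets (SD 12m and CR 12m). They were chosen by these labels, so the change of state itself is the selection and not a result. The rule found 296722 bins (59.3 Mb) among 1017635 autosomal bins in state 6 in SD 3m and among 12313718 autosomal bins in all, and adjacent bins merged into 9304 unbroken stretches. Livers of female C57BL/6 mice, fixed in formalin and embedded in paraffin, supplied the chromatin. SD 3m comprised 8 mice aged 3 months on standard diet, SD 12m 8 mice aged 12 months on the same diet, and CR 12m 9 mice aged 12 months fed 30% fewer calories. ChIP-seq libraries of H3K4me3, H3K27ac, H3K4me1 and H3K27me3 were merged within each group before ChromHMM assigned 1 of 8 states to every bin, and the merged H3K27me3 profile, which defines state 6, combined 7, 8 and 6 libraries for SD 3m, SD 12m and CR 12m. A group therefore had a single segmentation, no value below has an error between mice, no test between groups was made, and the read depth of the merged profiles is not known. Ranges over the 19 autosomes describe evenness along the genome and not variation among mice.

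Polycomb repressive complex 2 places methyl groups on lysine 27 of histone H3, and H3K27me3 in turn is bound by Polycomb repressive complex 1, which compacts chromatin and holds genes silent. In adult tissues such as the liver, H3K27me3 covers genes that belong to other cell types, above all developmental regulators with CpG-rich promoters, and it also spreads thinly over long regions between genes. State 8 is called quiescent because none of the studied marks was detected there, which refers to chromatin and not to resting cells. In whole liver, a loss of the mark from every cell, a loss from some cells and a change in the mixture of cells cannot be told apart.

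The label was compared with genes whose state in liver is known. In SD 3m, state 6 covered the transcription start site (TSS) of 30 of 39 Hox genes and those of Pax6 and Neurod1, which direct eye and neuron development, and both of the latter stayed in state 6 throughout. Hepatocyte markers, Alb (albumin) and Hnf4a among them, had all 10 TSS in TSS or enhancer states (states 1 to 4) in every group. Among markers of other liver cells, the TSS of Clec4f of Kupffer cells, Cd3d, Cd3e and Cd3g of T cells and Pax5 of B cells were in state 6 in SD 3m, and all of them were in state 6 at 12 months too, so no TSS of the 42 cell-type markers examined was a member. Of the 32 markers of cells other than hepatocytes, 17 had another state in at least 1 of the 12-month groups than in SD 3m. Marco (Kupffer cells) and Des (stellate cells) went from state 8 to state 6 under both diets, Adgre1 (Kupffer cells) from state 5 to states 6 and 8 in SD 12m and CR 12m, Krt7 and Sox9 (cholangiocytes) from states 8 and 7 to states 6 and 4 in SD 12m and to states 4 and 1 in CR 12m, and Kdr and Clec4g (endothelium) from states 7 and 8 to states 5 and 7 in SD 12m and to state 4 in CR 12m. The part of such changes in the loss of state 6 was not tested.

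Sequences are shown as examples of lost and of kept regions, chosen by length or as reference genes and not to represent the average of either class. The first lines give the 200 bases before the TSS of genes whose whole surroundings were lost under both diets (Gm3646, Dct, Mroh9 and Doxl1), the next lines the middle bin of the 3 longest lost stretches and of the 3 longest kept stretches (the Hoxc cluster, the region of Nkx2-1 and the Hoxd cluster), and the last lines the 200 bases before the TSS of Pax6 and Neurod1, where state 6 remained. All are written 5′ to 3′ from GRCm38.p6 on the strand given, and capitals mark CpG dinucleotides, the positions where cytosine can be methylated.
Gm3646 (chr1:39805333-39805532, - strand): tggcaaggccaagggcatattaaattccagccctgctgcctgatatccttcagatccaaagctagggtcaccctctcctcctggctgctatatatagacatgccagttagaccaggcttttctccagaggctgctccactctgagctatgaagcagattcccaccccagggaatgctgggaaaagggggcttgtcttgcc
Dct (chr14:118052247-118052446, - strand): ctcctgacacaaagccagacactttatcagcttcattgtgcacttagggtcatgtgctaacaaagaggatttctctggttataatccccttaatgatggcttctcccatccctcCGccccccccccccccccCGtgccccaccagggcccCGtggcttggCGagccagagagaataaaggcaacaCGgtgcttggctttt
Mroh9 (chr1:163085671-163085870, - strand): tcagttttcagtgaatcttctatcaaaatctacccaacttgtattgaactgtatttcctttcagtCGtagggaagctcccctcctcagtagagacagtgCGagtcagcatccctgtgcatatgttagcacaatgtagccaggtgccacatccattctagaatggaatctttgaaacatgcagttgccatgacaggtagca
Doxl1 (chr6:48929696-48929895, + strand): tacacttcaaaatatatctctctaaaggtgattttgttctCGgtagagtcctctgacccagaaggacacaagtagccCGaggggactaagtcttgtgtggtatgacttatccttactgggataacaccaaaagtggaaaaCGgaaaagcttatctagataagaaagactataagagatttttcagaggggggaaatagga
Myo9a stretch (chr9:59857201-59857400, + strand): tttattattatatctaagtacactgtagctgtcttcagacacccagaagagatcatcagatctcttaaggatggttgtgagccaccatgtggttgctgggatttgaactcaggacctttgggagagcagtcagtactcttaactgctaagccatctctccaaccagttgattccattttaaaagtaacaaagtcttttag
Gm32590 stretch (chr8:127761601-127761800, + strand): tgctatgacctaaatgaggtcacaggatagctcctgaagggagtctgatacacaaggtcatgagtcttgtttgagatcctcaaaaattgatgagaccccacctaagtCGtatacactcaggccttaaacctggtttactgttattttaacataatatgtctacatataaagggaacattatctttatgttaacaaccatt
4933416E03Rik stretch (chr2:159978401-159978600, + strand): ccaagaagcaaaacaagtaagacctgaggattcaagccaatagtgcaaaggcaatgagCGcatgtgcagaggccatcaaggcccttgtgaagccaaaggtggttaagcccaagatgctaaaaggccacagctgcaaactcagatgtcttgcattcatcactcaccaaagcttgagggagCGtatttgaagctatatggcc
Hoxc kept stretch (chr15:102899001-102899200, + strand): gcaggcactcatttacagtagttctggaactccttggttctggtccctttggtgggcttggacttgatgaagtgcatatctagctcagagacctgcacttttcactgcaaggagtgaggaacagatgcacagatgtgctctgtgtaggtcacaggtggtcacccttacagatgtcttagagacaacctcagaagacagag
Nkx2-1 kept stretch (chr12:56460201-56460400, + strand): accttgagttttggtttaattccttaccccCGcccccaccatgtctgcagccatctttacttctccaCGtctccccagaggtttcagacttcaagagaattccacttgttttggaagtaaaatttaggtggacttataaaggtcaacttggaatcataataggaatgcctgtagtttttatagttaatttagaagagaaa
Hoxd kept stretch (chr2:74717801-74718000, + strand): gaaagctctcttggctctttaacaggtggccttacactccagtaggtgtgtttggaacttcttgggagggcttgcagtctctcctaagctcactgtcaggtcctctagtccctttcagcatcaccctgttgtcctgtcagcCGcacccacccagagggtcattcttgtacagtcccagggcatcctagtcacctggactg
Pax6 (chr2:105668696-105668895, + strand): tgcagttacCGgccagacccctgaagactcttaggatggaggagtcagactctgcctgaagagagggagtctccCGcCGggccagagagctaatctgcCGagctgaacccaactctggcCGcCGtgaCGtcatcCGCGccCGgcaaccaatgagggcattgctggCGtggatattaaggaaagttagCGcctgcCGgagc
Neurod1 (chr2:79456637-79456836, - strand): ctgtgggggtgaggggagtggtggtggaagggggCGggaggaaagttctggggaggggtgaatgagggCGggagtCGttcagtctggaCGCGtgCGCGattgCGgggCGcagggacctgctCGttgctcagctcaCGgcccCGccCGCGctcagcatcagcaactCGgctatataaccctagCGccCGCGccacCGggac
The 4 windows before lost TSS held 0, 5, 2 and 3 CpG, and the 3 windows from the middle of long stretches held 0, 1 and 2. The 3 windows from kept stretches held 0, 2 and 1, similarly few, although these kept stretches as a whole held 1.35, 0.979 and 1.94 CpG per 100 bases. Pax6 held 13 and Neurod1 19, as counts in 200 bases. Kept TSS had a median of 3.6 CpG per 100 bases in 1 kb (quartiles 1.475 and 6.6). Counted per 100 bases, both windows lay above that median, Pax6 just below the upper quartile and Neurod1 above it. These ranks are rough, because 200 bases before a TSS are set against 1 kb around it. CpG-rich TSS occurred among the lost ones too (Cnnm1 and Fbn2, described further on). None of these windows overlaps an annotated exon. The Myo9a window lies in introns of Myo9a and of the lncRNA Gm20275, the 4933416E03Rik window in an intron of that lncRNA, the Hoxd window in an intron of Hoxd3, the Pax6 window in an intron of the antisense gene Pax6os1, and the others between genes.

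By 12 months, 382853 (37.6%) of the autosomal state 6 bins of young mice had taken state 8 on standard diet and 442271 (43.5%) under caloric restriction, and the 296722 members made up 29.2% (Wilson 95% interval 29.1 to 29.2, which counts bins that are not independent of their neighbours). Both comparisons share the SD 3m segmentation, so a bin placed in state 6 in error in SD 3m would enter both. State 6 remained in all 3 groups in 442878 bins (43.5%, here called kept). A further 71063 bins (6.98%) were in state 8 in SD 12m with state 6 in CR 12m, 126167 (12.4%) the reverse, and 80805 (7.94%) took other pairs of states. Bins that left state 6 without entering state 8 mostly entered state 4, a weak enhancer state (5.58% of state 6 bins in SD 12m and 3.95% in CR 12m).

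Members lay on every autosome, at uneven shares. Chromosome 19 had the lowest member share of its state 6 bins (18.2%), followed by chromosomes 9 (20.6%), 11 (21.5%) and 2 (21.7%). Chromosome 16 had the highest (41.9%), followed by chromosomes 14 (39.3%) and 10 (37.5%), and the median over autosomes was 31.6%. The state 8 share of CR 12m exceeded that of SD 12m on 18 of 19 autosomes, chromosome 12 being the exception (44.1% in CR 12m and 44.5% in SD 12m). Chromosomes poorer in state 6 tended to have higher member shares, though chromosome 19, with 6.39% of its bins in state 6, had the lowest share. Spearman's correlation coefficient between the member share and the percent of the chromosome in state 6 was -0.58 over the 19 autosomes. With the median length of the SD 3m state 6 run around a state 6 bin it was -0.71. Both describe points that come from the same 3 segmentations.

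**Figure D1:**
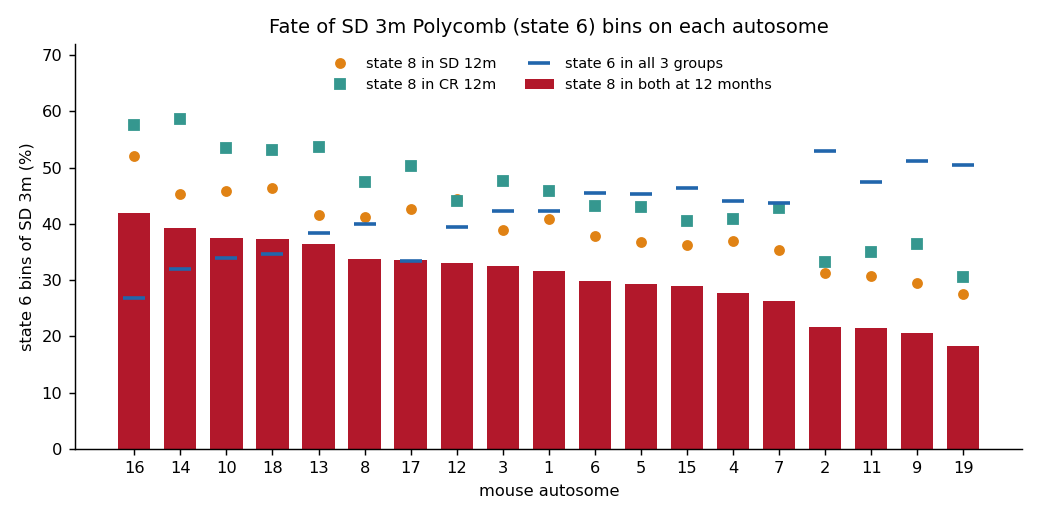
Percent of SD 3m state 6 bins on each autosome (y axis) that were in state 8 in both 12-month groups (bars), in state 8 in SD 12m (circles) or in CR 12m (squares), or in state 6 in all 3 groups (dashes), with autosomes ordered by the bars. The bars run from 41.9% on chromosome 16 to 18.2% on chromosome 19, and the squares lie above the circles on all autosomes but chromosome 12.

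The members formed stretches rather than scattered bins. The median stretch was 4200 bp long (5th to 95th percentile 400 to 19000 bp), and only 304 of 9304 were single bins. Stretches of at least 10 kb numbered 1893 and held 53.6% of the lost bases, and 17 reached 50 kb. Kept stretches were longer, with a median of 8400 bp and a maximum of 321200 bp against 86600 bp for members. In place, 2624 stretches (32.4% of member bases) were whole domains, a domain being an unbroken run of state 6 in SD 3m. Another 4656 (45.1% of bases) reached 1 border of a domain, and 2024 (22.5%) lay inside a domain with state 6 on both sides in SD 3m.

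Each stretch is flanked by a bin on either side, 18608 in all. Of these, 8704 had been in state 6 in SD 3m, where by construction at least 1 of the 12-month groups was not in state 8. Of these inner flanks, 33.0% had state 6 in SD 12m with state 8 in CR 12m, 24.6% the reverse, and 30.3% state 4 in either group. Of the 9904 flanking bins that had another state in SD 3m, 81.9% carried state 8 in all 3 groups, so most domain borders of members faced quiescent chromatin already in young mice, and 7.55% faced state 4 and 7.74% the poised enhancer state 5 in SD 3m. At 12 months the nearest remaining state 6 bin lay at a median of 9200 bp from a stretch in SD 12m (30.0% of stretches touched it and 28.5% were over 50 kb away) and of 14800 bp in CR 12m (23.1% and 32.8%).

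Short domains were lost more completely than long ones. SD 3m had 12682 autosomal state 6 domains with a median of 9400 bp, of which 2624 (20.7%) consisted of members only, 4849 lost a part in this way and 5209 held no member. Of the 543 domains under 1 kb, 41.8% were members throughout, against 5.58% of 2349 domains of 20 to 50 kb, 7 of 577 domains of 50 to 100 kb and 0 of 125 domains of 100 kb or more. Counted in bins, the member share was 44.4% in domains under 1 kb, 41.7% at 5 to 10 kb, 28.6% at 20 to 50 kb and 10.3% at 100 kb or more, while the kept share climbed from 13.7% to 75.3%. The fall with length was steep from 10 kb on and slight below it. The domains of 100 kb or more were few, and the autosomes that hold them ranged from 0% to 79.3% members.

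The member share varied less with position in short domains than in long ones. Over all domains, 38.8% of bins under 1 kb from the border were members and 12.9% of bins 20 kb or more from it. In domains of 5 to 10 kb the share was nearly the same at every depth (41.5% under 1 kb, 41.9% at 1 to 2 kb and 41.7% at 2 to 5 kb). In domains of 20 to 50 kb it dropped from 34.96% under 1 kb to 20.8% at 20 kb or more, and in domains of 100 kb or more from 24.7% to 8.496%. Much of this fall lay at depths that short domains do not reach. At 2 to 5 kb, the deepest class in domains of 5 to 10 kb, these longer domains still had 32.4% and 19.7%.

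**Figure D2:**
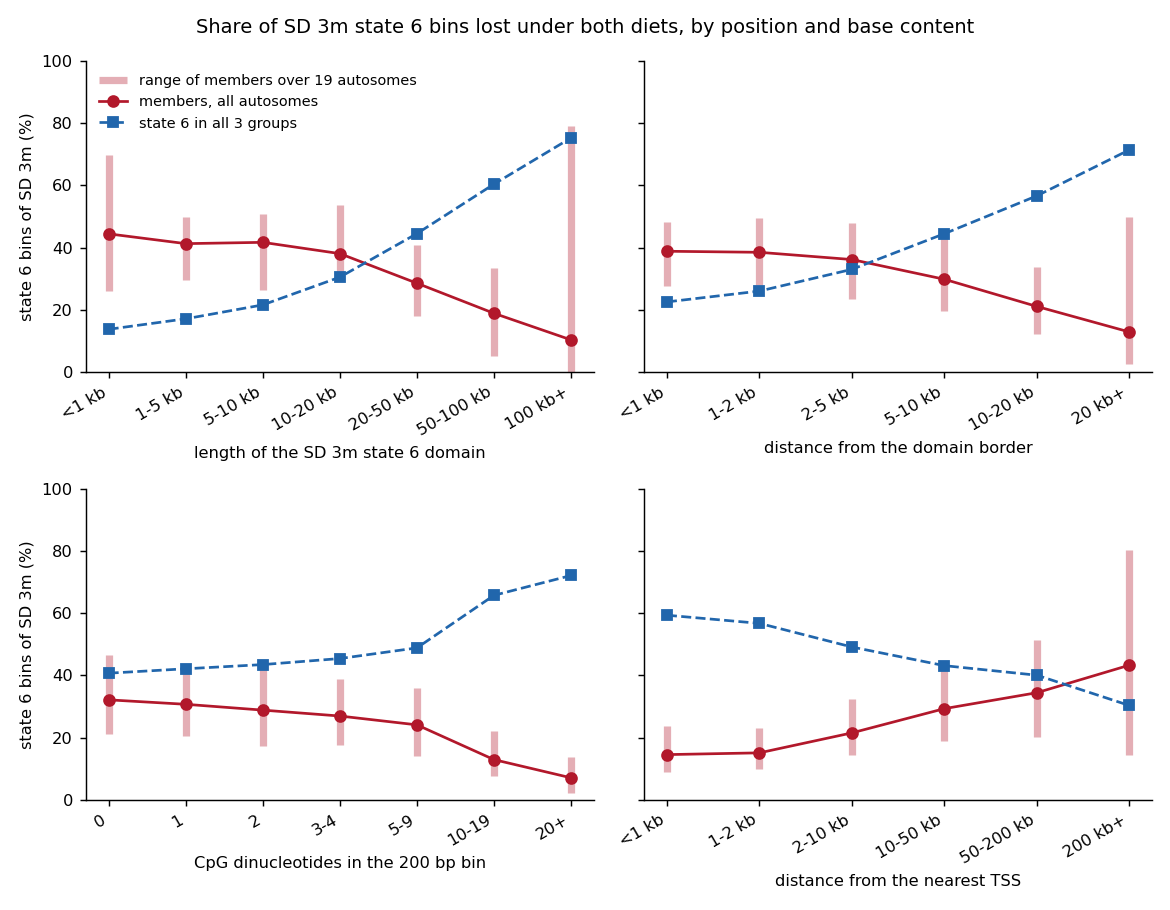
Percent of SD 3m state 6 bins (y axis) that were members (circles) or in state 6 in all 3 groups (squares), by the length of the SD 3m domain, the distance from its border, the CpG count of the 200 bp bin and the distance from the nearest TSS (x axes), where thick bars give the range of the member share over the autosomes that hold such bins. The member share falls with domain length (44.4% to 10.3%), depth in the domain (38.8% to 12.9%) and CpG count (32.1% to 7.04%) and climbs with distance from a TSS (14.5% to 43.3%).

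The lost bins were poorer in CpG than the kept ones. Members held 0.872 CpG per 100 bases and kept bins 1.09, with members lower on 19 of 19 autosomes, and bins in state 8 in all 3 groups held 0.755, with members higher on 19 of 19. The average over all autosomal bins was 0.851, so members lay close to the genome as a whole and kept bins above it. The gap to kept bins was not one of GC content alone, as the observed to expected CpG ratio was 0.189 in members, 0.222 in kept bins and 0.178 in bins always in state 8. GC content itself was 42.9% in members, 44.3% in kept bins and 41.1% in bins always in state 8, in this order on 19 of 19 autosomes. With chromosome X added, members minus kept went from -1.37 to -0.64 percentage points of GC and from -0.22 to -0.14 CpG per 100 bases. Bins lost under a single diet stood between members and kept bins in CpG (0.954 per 100 bases where only SD 12m was in state 8 and 0.915 where only CR 12m was), and members were lower than these on 17 and 16 of 19 autosomes.

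CpG-dense bins were the ones that most often stayed. The member share was 32.1% of the 240555 state 6 bins without a CpG, 28.8% with 2, 24.1% with 5 to 9, 12.9% with 10 to 19 and 7.04% of the 2643 bins with 20 or more, of which 72.1% were kept. Domain length did not remove this order. Within domains of 5 to 10 kb the member share went from 46.3% without a CpG to 16.1% with 20 or more, within domains of 20 to 50 kb from 31.1% to 5.65%, and within domains of 100 kb or more from 11.4% to 0.333% (1 of 300 bins). Members also held more repeat bases than kept bins (28.6% against 25.1%, higher on 19 of 19 autosomes). They held fewer than the quiescent background (39.4%, lower on 19 of 19). Bins lost on standard diet only held about as many as members (28.65% against 28.55%), with members higher on 11 autosomes and lower on 8. Bins lost under caloric restriction only held 26.3%, with members higher on 18 of 19. The excess over kept bins was therefore shared by bins lost on standard diet only.

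Members lay farther from gene starts than kept bins and nearer to them than the genome as a whole. Annotated genes covered 41.7% of member bases and 47.4% of kept bases, lower in members on 15 of 19 autosomes, with the opposite order on 4. Exons covered 3.93% and 6.01% (lower on 18 of 19). The median distance from the nearest TSS was 34945 bp for members, 22451 bp for kept bins (shorter on 19 of 19 autosomes), 86131 bp for bins always in state 8 (longer on 19 of 19) and 55058 bp over all autosomal bins. Under 1 kb from a TSS, 14.5% of state 6 bins were members and 59.3% kept, and at 200 kb or more 43.3% were members and 30.3% kept. The same order held inside domains of 20 to 50 kb (14.0% under 1 kb from a TSS and 44.9% at 200 kb or more) and of 100 kb or more (1.18% and 33.6%).

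The longest of all stretches, 86.6 kb (chr9:59814001-59900600), lay inside a state 6 domain of 218.4 kb and within Myo9a, which encodes an unconventional myosin and 48.6% of which it covered. The second, 80.4 kb (chr8:127721401-127801800), touched only the end of the lncRNA Gm32590. The next (chr2:159940801-160016000) was a whole domain of 75.2 kb around the lncRNA 4933416E03Rik, and the nearest remaining state 6 lay 352 kb away in SD 12m and 30.4 kb away in CR 12m. A further stretch (chr4:105743001-105816000, 73.0 kb) was likewise a whole domain, over no gene but the pseudogene Gm12728, with the nearest state 6 at 249 kb in SD 12m and 188.2 kb in CR 12m. The other 6 measured 64.6 to 70.2 kb: 1 on chromosome 12 at chr12:77992401-78062600 lay 102.9 kb from the nearest gene (Gm24994), 1 on chromosome 1 at chr1:76696201-76760800 lay 186.6 kb from Mir6343, and the rest met only lncRNA genes, a pseudogene and a snoRNA gene (Gm32478, Gm32532, Gm35488, Gm24070, Gm8219, Gm30530, Gm30382 and A630039O03Rik). Of all 10, only the Myo9a stretch met a protein-coding gene. Their CpG content was 0.435 (Myo9a) to 1.12 (Gm30530) per 100 bases.

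**Figure D3:**
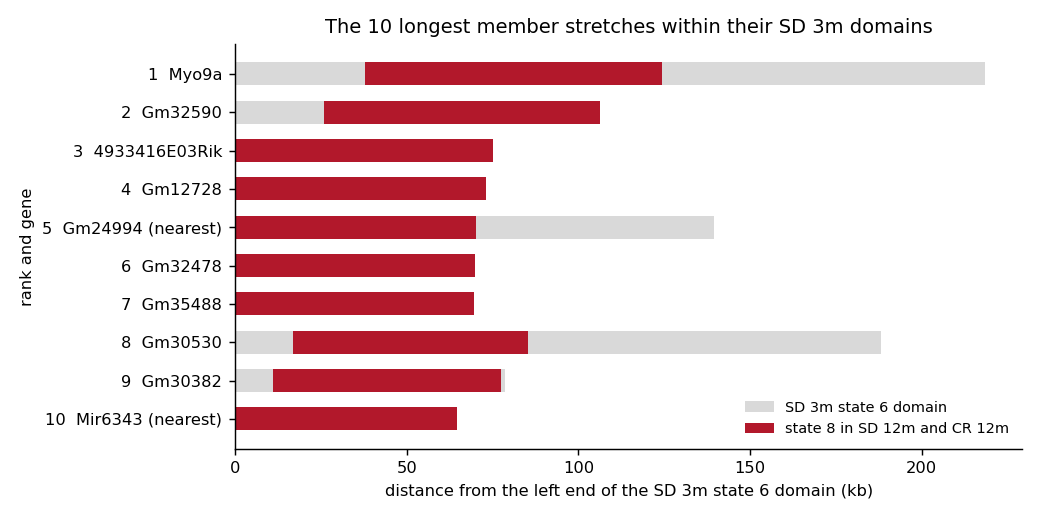
The 10 longest member stretches (dark bars) drawn within the SD 3m state 6 domain that held each (light bars), with distance from the left end of the domain in kb on the x axis and the rank and first overlapping or nearest gene on the y axis. Ranks 3, 4, 6, 7 and 10 fill their domains, whereas the Myo9a stretch takes 86.6 kb of 218.4 kb.

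Lost bins were unevenly spread along the genome, as was state 6 itself. Of 2454 blocks of 1 Mb, 569 held no state 6 in SD 3m and 726 no member, and the median block was 1.06% member. With blocks ranked by content, 50% of members lay in 293 blocks, 50% of all state 6 bins in 341 and 50% of kept bins in 220. In the block with the highest share, chr13:35000001-36000000, members filled 29.6%, which was 93.4% of the block's state 6 bins, and no bin was kept. Its largest gene overlap was Cdyl (60.4 kb), whose product is a chromodomain protein that binds repressive histone methylation. The next blocks, chr8:127000001-128000000 (26.7%) and chr12:77000001-78000000 (26.6%), include 3 of the 10 longest stretches whole and the start of another, and their main gene overlaps were with lncRNA genes (Gm32532 and Gm35240), as in chr6:143000001-144000000 (26.3%) with D6Ertd474e. In the last of the 5, chr5:132000001-133000000 (25.1%), nearly all members (222.8 kb of 251.4 kb) lay in Auts2, a gene of neuronal development whose product joins a form of Polycomb repressive complex 1. No bin of that block was kept.

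At TSS, loss under both diets was less frequent than over bins as a whole. Of 24963 autosomal TSS, 2543 were in state 6 in SD 3m, and 353 of these were members (13.9%, Wilson 95% interval 12.6 to 15.3), against 60.1% kept. Protein-coding genes gave 256 of 1999 (12.8%), lncRNA genes 85 of 439 (19.4%) and miRNA genes 6 of 70 (8.57%). Members held 5.95 TSS per Mb and kept bins 17.3, with 10.1 over all autosomal bins, and 333 stretches (3.58%) contained a TSS. CpG content of the 1 kb around the TSS differed: the median was 1.5 CpG per 100 bases at member TSS and 3.6 at kept TSS. Of 437 state 6 TSS with under 1 CpG per 100 bases 23.8% were members, of 888 with 1 to 3 CpG 17.5%, of 594 with 3 to 6 CpG 8.75%, and of 624 with 6 or more 6.73%.

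For 109 of the 256 protein-coding genes, all 21 bins within 2 kb of the TSS were members. The 15 genes with the longest stretches among them were Gm3646, Cdyl, Dct, Mroh9, Cnnm1, Cpvl, Doxl1, Myo7b, Dleu7, Xcl1, Fbn2, Pdcl2, Ttll8, Rapgef5 and Tmem163, with stretches of 44.4 kb (Gm3646) down to 25.4 kb (Tmem163). The Cdyl stretch of 39.4 kb was a complete domain around this TSS, which is the start of its longest curated transcript. Dct, which encodes an enzyme of melanin synthesis, lost 38.8 kb of a domain of 44.8 kb. Xcl1, a chemokine made by T and natural killer cells, lay in a lost domain of 27.4 kb, and Fbn2, a fibrillin of elastic fibres, in one of 27.2 kb. Low CpG content was usual but not general among these 15: it was 0.4 per 100 bases at Mroh9 and 0.6 at Cdyl, but 9.7 at Cnnm1, 8.8 at Fbn2, 7.2 at Tmem163, 6.2 at Dleu7 and 6 at Ttll8.

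Grouped by function, developmental regulators were nearly absent from the members. The shares below are to be read against 13.9% over all state 6 TSS, and no list was tested. The lists were not matched for CpG content. State 6 TSS with 3 to 6 CpG per 100 bases had 8.75% members and those with 6 or more 6.73%, so CpG-rich lists have a lower reference. No Hox gene was a member (0 of 30 in state 6, 29 kept), and of 120 developmental transcription factors in state 6, 3 were members and 105 kept. The 3 were Pax4, which directs pancreatic beta cell formation, Lhx3, which directs pituitary and motor neuron formation, and Six4, a regulator of muscle and sensory organs. Pax4 sat in a lost stretch of 16400 bp with 0.3 CpG per 100 bases at its TSS, whereas the stretches at Lhx3 (2000 bp of a domain of 28600 bp) and Six4 (1400 bp of 19000 bp) were short pieces of longer domains. Of secreted Wnt, Fgf and Bmp ligands 1 of 26 was a member (Bmp8a, whose whole domain was 3800 bp). Keratins and keratin-associated genes gave 1 of 48 (Krt10, with 46 kept) and collagens 0 of 9. Solute carriers gave 2 of 44 (Slc38a11 and Slc4a11).

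Immune signalling genes were among the lists with shares above 13.9%, all of them short. Of 19 interleukin and interleukin receptor TSS in state 6, 5 were members (26.3%) and 8 kept. They were Il3 (stretch of 13800 bp), Il4 (7400 bp) and Il21 (4000 bp), cytokines made by T cells, Il7r (7200 bp, the whole domain), the receptor through which lymphocytes receive Il7, and Il2ra (2200 bp), a receptor subunit of activated T cells. Of 9 chemokine and chemokine receptor TSS, 3 were members (33.3%) and 5 kept: Ccl11 (13800 bp, the whole domain), which attracts eosinophils, Ccr8 (11600 bp), found on T cells, and Cxcr2 (8200 bp), a receptor of neutrophils. All 8 of these TSS held between 0.6 (Il7r) and 1.9 (Il4) CpG per 100 bases, a range in which 17.5% to 23.8% of all state 6 TSS were members. The T cell markers Cd3d, Cd3e and Cd3g kept state 6 in every group. Both lists are short, and their shares rest on 5 and 3 TSS.

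Ion channels, neurotransmitter receptors and olfactory receptors had member shares of 9.76%, 11.1% and 10.2%. Channels gave 4 of 41 (Cacng1, Scn3b, Kcnip2 and Scn4a), with 32 kept, and neurotransmitter receptors 3 of 27 (Chrng, Htr1d and Chrnb2). Chrng and Scn4a, with Cacng1, encode parts of the receptor and channels of skeletal muscle. Of 108 olfactory receptors in state 6 in SD 3m, 11 were members and 64 kept. In a further 28 the TSS had state 8 in CR 12m with state 6 in SD 12m, and in 3 the reverse, where all state 6 TSS gave 11.4% and 4.80%. Of 8 vomeronasal receptors 2 were members (25%, Vmn1r42 and Vmn1r54). Cytochrome P450 genes gave 2 of 5 (40%), namely Cyp19a1, the aromatase that makes oestrogens, whose whole domain of 22000 bp was lost, and Cyp2b19. Zinc finger genes gave 1 of 8 (Zfp57), orphan G protein-coupled receptors 2 of 11 (Gpr142 and Gpr161), clustered protocadherins 0 of 4 and other cadherins 0 of 3. None of 31 genes of Polycomb complexes and H3K27 demethylases and none of 7 cyclin-dependent kinase inhibitor genes had a TSS in state 6 in SD 3m.

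**Figure D4:**
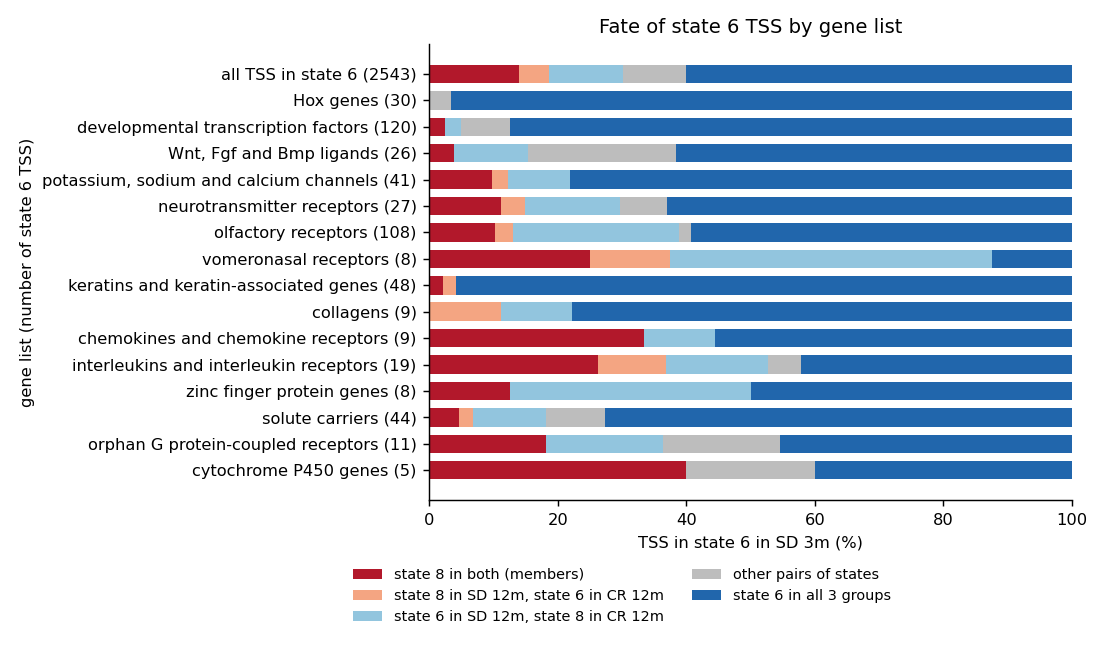
Fate of the TSS in state 6 in SD 3m as percent of the list (x axis) for all genes and for each gene list with at least 5 such TSS (y axis, number in parentheses), with dark red for members and dark blue for state 6 in all 3 groups. Hox genes (0 of 30), developmental transcription factors (3 of 120) and keratins with keratin-associated genes (1 of 48) lie below the 13.9% of all state 6 TSS. P450 genes (2 of 5), chemokines (3 of 9), interleukins (5 of 19), vomeronasal receptors (2 of 8) and orphan G protein-coupled receptors (2 of 11) lie above it, in lists of few TSS.

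Much of the loss inside protein-coding genes lay in genes whose own start was not in state 6. Of 20558 autosomal protein-coding genes, 1792 (8.72%) overlapped a member. Of the member bases in such genes, 28.2% lay in genes whose TSS was in a TSS or enhancer state (states 1 to 5) in SD 3m, against 10.2% of kept bases, and 25.5% in genes with the TSS in state 8, against 17.7% of kept bases. Genes with the TSS in state 6 held 43.8% of member bases and 69.9% of kept bases. Kept bases within genes were thus mostly those of genes in state 6 at their start, while more of the lost bases lay in the bodies of genes in another state there.

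**Figure D5:**
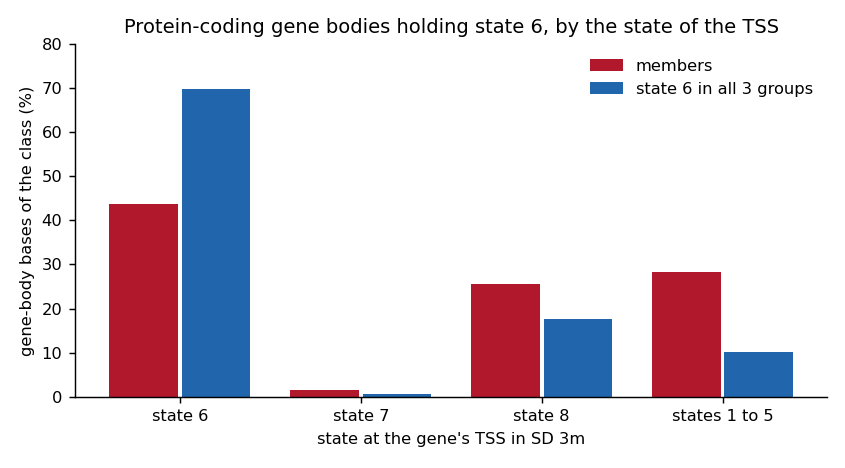
Percent of the bases inside protein-coding genes (y axis) that lay in genes with the given state at their TSS in SD 3m (x axis), for members (left bars) and for bins in state 6 in all 3 groups (right bars). Members exceed kept bins in genes with a TSS in states 1 to 5 (28.2% and 10.2%) and fall short of them in genes with a TSS in state 6 (43.8% and 69.9%).

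Genes of at least 20 kb with the largest share of their length in members show both kinds. In 43 of 9548 such genes members covered over 50% of the gene, and 10 of these 43 had their TSS in states 1 to 5. Il7, the cytokine that sustains lymphocytes, was 91.5% member (38.2 of 41.7 kb), while its TSS carried states 1, 2 and 1 in SD 3m, SD 12m and CR 12m. Fgf9, a fibroblast growth factor, was 80.3% member, with its TSS in state 2 in SD 3m and state 3 at 12 months under both diets. In Cnga1, the rod photoreceptor channel, members covered 81.7%, and its TSS went from state 6 to state 4 in both 12-month groups. The TSS of Lgi2, Mael (a germline gene of transposon silencing) and 4933424G06Rik went from state 6 to state 8 with their bodies (72.9%, 71.6% and 77.5% member). The TSS of Vmn2r83 (91.2%), Mlc1 (73.5%) and Rbm44 (72.8%) carried state 8 in every group, and that of Plaat5 (75.2%) state 6 in every group.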

How the data were processed

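FFPE liver chromatin of 31 mice was profiled by ChIP-seq (108 libraries). The authors aligned reads to mm10 with BWA 0.6.2-r126, processed them with SAMtools 0.1.18, dropped duplicates and poor mappings, pooled each group's libraries by mark, and ran ChromHMM. The values used are the deposited ChromHMM labels (8 states, bins of 200 bp, chromosomes 1 to 19 and X), not signal, so read depth is unknown. Merging and the smoothing of the model can shift borders and favour groups with deeper libraries.

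Labels were analysed unfiltered in Python 3.11.15 (numpy 2.4.6, pandas 2.3.3, scipy 1.17.1, matplotlib 3.10.9). GRCm38.p6, whose chromosome ends match the files, gave bases, lower-case repeats and RefSeq genes; base content left out 10 member bins with unassembled bases. A gene has 1 TSS, that of its longest curated transcript. Domains are unbroken state 6 runs in SD 3m. Intervals are Wilson 95% over bins or TSS and cover counting only. Functions were tested on simulated segmentations. SD 6m was not analysed here.

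The members and gene lists (26, matched by symbol) were chosen with earlier results of these data known. Named were the 10 longest stretches, the 15 protein-coding genes with most member bins within 2 kb of the TSS (ties by stretch length), the 10 genes of at least 20 kb with the largest member share, up to 4 genes per list by stretch length (Il2ra, Slc38a11 and the counts of 5 or fewer in full were added afterwards), the main genes of the 5 richest 1 Mb blocks, and Pax6, Neurod1 and Alb. The 3 longest kept stretches and the changed cell-type markers named were added after their values were seen. Promoter sequences are the 200 bases before the TSS in place of the TSS bin, to leave out transcribed bases; Cdyl, Cnnm1 and Cpvl were passed over because that window overlaps an exon.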

Additional observations from a re-analysis of the deposited data

How the results depend on the processing

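No paired analysis was possible because each group has 1 segmentation of merged libraries, and for the same reason no library was left out. Of 38 alternative values, 19 stayed within the counting interval of the reported value and 19 did not, and no difference between members and kept bins changed sign. These intervals are narrow because they count bins, not mice. Read depth is not known, so a mark lost and a mark below detection cannot be told apart, and the part of library number and depth in the loss was not tested. The cause of the following shifts was not tested either. With chromosome X added, the member share was 26.8% of state 6 bins (reported 29.2%), wholly lost domains 19.8% (20.7%), and members minus kept -0.14 CpG per 100 bases (-0.22), -0.64 percentage points of GC (-1.37), 2.86 of repeats (3.41), -4.10 of gene bases (-5.75) and -25200 bp in median domain length per bin (-21800). Without bins under 1 kb from a domain border, the member share was 27.9%, the GC difference -1.32 and the gene difference -5.49. With 10 kb windows, the member share was 29.3% and the differences were -0.21 (CpG), -1.32 (GC), 2.86 (repeats) and -5.77 (genes). Outside repeats the CpG difference was -0.27 and the GC difference -1.50. With protein-coding genes only, the gene difference was -5.23. With domains of at least 1 kb only, 19.7% of domains were wholly lost.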
